A study of Mus musculus with 9 samples.

Results

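Red blood cell genes were described in whole embryos of mice without SR-B1, a lipoprotein receptor, for 33 genes chosen as embryonic globins, red cell membrane proteins and enzymes, and erythroid regulators, without the enzymes of heme synthesis. Of these, 31 were found under their listed symbol among the 24330 genes used of the deposited table of all genes. *Epb42* was found only under its older symbol Epb4.2, so its values are given but it is not in the counts. *Ahsp*, the alpha-globin chaperone, was not found under that symbol and was not analysed here.

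The study compared embryos at embryonic day 9.5 that were homozygous for the null allele of *Scarb1*, the SR-B1 gene, and had an open neural tube in the head (KO-NTD), such knockout embryos of normal shape (KO-N), and wild-type embryos (WT). All came from crosses of heterozygous mice on a mixed C57Bl/6J x 129S2 background, with dams on standard chow, and the yolk sacs were dissected away. RNA was sequenced from 3 pools in each group, 9 in all, each of 3 whole embryos, and the values used here are 1 FPKM per group (fragments per kilobase of transcript relative to all mapped fragments). The authors' confidence bounds accompany the KO-NTD and KO-N values and those of a column headed Control. That column was not taken as WT. Over the 16 red cell genes with a WT value in the authors' comparison sheets it was 0.768 to 1.07 times WT (median 0.972). The sheets hold only genes that the authors marked significant, and the other 15 were not compared with WT. Spread between pools cannot be seen in 1 value per group, and no test between pools was run. *Scarb1* itself was at 3.12 FPKM in KO-NTD embryos and 3.34 FPKM in KO-N embryos, against 17.1 FPKM in WT embryos. The embryos are labelled female, yet 4 genes of the Y chromosome were measured at 1.61 to 5.12 FPKM in KO-NTD embryos and 1.58 to 5.69 FPKM in KO-N embryos, against 3.68 to 10.5 FPKM in WT embryos. The part of embryo sex in the results below was not tested.

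The first red cells of the mouse form in the blood islands of the yolk sac and enter the circulation as nucleated erythroblasts, which go on maturing in the blood. They make embryonic hemoglobin from zeta-globin (*Hba-x*) and the beta-like globins epsilon-y (*Hbb-y*) and beta-h1 (*Hbb-bh1*), and the balance of the beta-like chains moves from beta-h1 towards epsilon-y as they mature. The transcription factors GATA1, TAL1, LMO2 and KLF1 drive the program, with GATA1 binding GATA motifs and KLF1 binding CACCC boxes near red cell genes.

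RefSeq promoters (GRCm38.p6, the assembly of mm10) were available for 24 of the 33 genes, and the 100 bases before each start site were searched on both strands. The GATA words searched were the letters AGATAA, the variant written TGATAA, the variant written AGATAG and the variant written TGATAG. Any of these was present in 9 of the 24 windows (37.5%), against 10.6% of the windows of 27025 genes. The latter windows were the first listed for each gene, while those of the 24 were nearest the deposited spans. The shares here thus come from windows chosen by different rules. CACCC was present in 11 of the 24 (45.8%), against 26.8% of all genes, and CCAAT in 4 (16.7%), against 19.6%. The E-box CAGNTG, the motif of TAL1 and its partners, was in 4 (16.7%), against 20.7%. The windows of *Hba-x*, *Klf1* and *Kel* are shown, each with the most GATA words and CACCC boxes in its class (globin, transcription factor, membrane protein or enzyme) among genes lower in KO-NTD relative to KO-N embryos. Those of *Hbb-y*, *Rhag*, *Rhd* and *Pklr* were added after their values were seen, since these genes lead the results below. Capitals mark GATA words, CACCC and CCAAT on either strand. A match in a window is a run of letters, not a measured binding site.
*Hba-x*, chr11:32276500-32276599, plus strand: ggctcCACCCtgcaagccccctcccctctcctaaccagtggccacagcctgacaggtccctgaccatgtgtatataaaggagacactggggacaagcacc
*Hbb-y*, chr7:103853208-103853307, minus strand: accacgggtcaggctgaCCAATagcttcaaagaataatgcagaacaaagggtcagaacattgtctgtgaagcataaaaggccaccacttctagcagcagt
*Klf1*, chr8:84901882-84901981, plus strand: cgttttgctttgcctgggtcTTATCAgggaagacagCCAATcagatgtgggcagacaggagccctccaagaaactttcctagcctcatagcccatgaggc
*Kel*, chr6:41704326-41704425, minus strand: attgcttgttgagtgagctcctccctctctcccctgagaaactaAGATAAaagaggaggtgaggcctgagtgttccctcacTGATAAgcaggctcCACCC
*Rhag*, chr17:40811049-40811148, plus strand: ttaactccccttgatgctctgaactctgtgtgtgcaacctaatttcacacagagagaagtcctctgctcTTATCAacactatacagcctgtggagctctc
*Rhd*, chr4:134864436-134864535, plus strand: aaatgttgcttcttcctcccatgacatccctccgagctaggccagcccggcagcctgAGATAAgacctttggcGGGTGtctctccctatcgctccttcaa
*Pklr*, chr3:89136042-89136141, plus strand: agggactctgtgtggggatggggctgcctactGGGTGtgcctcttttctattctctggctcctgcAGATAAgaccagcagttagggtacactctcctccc
The *Kel* window holds 2 GATA words and 1 CACCC box, those of *Rhd* and *Pklr* 1 of each, those of *Klf1* and *Rhag* 1 GATA word, that of *Hba-x* 1 CACCC box and that of *Hbb-y* neither. CCAAT is in the *Hbb-y* and *Klf1* windows.

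The first question was how red cell genes differed between knockout embryos with and without the open neural tube. The embryonic globins *Hbb-y* and *Hba-x*, the membrane genes *Slc4a1* and *Rhag* and 7 other red cell genes were lower with the defect, and none was higher by the fold used. A gene was counted as lower or higher at a log2 fold of at least 0.4 in size, taken from FPKM + 0.1, among the 13569 genes that averaged 0.5 FPKM or more across both KO groups. Of the 31 genes found, 28 passed this filter, and 11 of the 28 were lower and 0 higher in KO-NTD relative to KO-N embryos, against 3.77% lower and 3.41% higher of all genes tested. The 11 were *Hbb-y*, *Hba-x*, *Klf1*, *Ank1*, *Add2*, *Slc4a1*, *Rhag*, *Rhd*, *Kel*, *Pklr* and *Hemgn*. The median log2 fold was -0.33, against -0.02 over all genes tested. Of the 28 folds, 22 were below 0, against 7906 of the 13569 over all genes tested. The authors' bounds of the groups did not overlap for 4 of the 28 (1.13% of all genes tested), namely *Hbb-y*, *Hba-x*, *Slc4a1* and *Rhag*. A 95% interval built from these bounds lay below 0 for 10 of the 28, against 2.53% of all genes tested. The count depended on how low genes were treated, with 5 of the 28 lower after adding 1 FPKM in place of 0.1 (1.98% of all genes), and 3 of the 12 genes averaging 5 FPKM or more (1.64% of all such genes), whose median log2 fold was -0.20. At a log2 fold of 1 or more in size, 0 of the 28 were lower, against 0.715% of all genes tested. In whole embryos, fewer red cells and less RNA per red cell cannot be told apart.

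Among the embryonic globins, *Hbb-y* differed most. It was measured at 843 FPKM in KO-NTD embryos (702 to 983 by the authors' bounds), with 1655 FPKM for KO-N embryos (1371 to 1939), against 1956 FPKM in WT embryos. KO-NTD embryos thus had 50.9% of the KO-N level, a log2 fold of -0.97 with a 95% interval from -1.31 to -0.64, and the bounds were well apart. *Hba-x* was at 1231 FPKM (1034 to 1428) in KO-NTD embryos and 1762 FPKM (1474 to 2050) in KO-N embryos, against 2226 FPKM in WT embryos. Its log2 fold over KO-N was -0.52 (95% interval -0.84 to -0.19). *Hbb-bh1* was at 940.0 FPKM (792 to 1088) in KO-NTD embryos and 1203 FPKM (1002 to 1404) in KO-N embryos, against 1672 FPKM in WT embryos. Here the bounds of the KO groups overlapped, with a log2 fold of -0.36 (95% interval -0.68 to -0.03). The column headed Control was at 1827 FPKM for *Hbb-y*, 1545 FPKM for *Hbb-bh1* and 2125 FPKM for *Hba-x*. All 3 globins were thus lowest in KO-NTD embryos and highest in WT embryos.

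**Figure D1:**
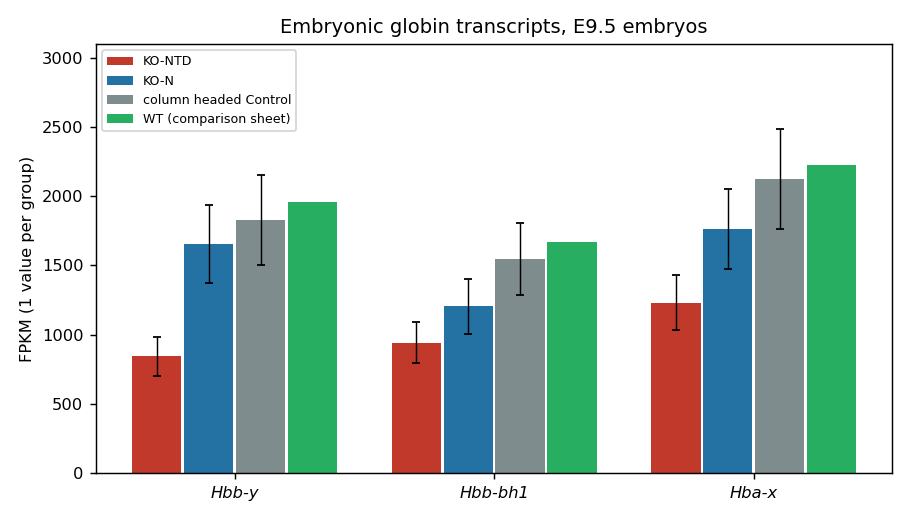
FPKM of the 3 embryonic globin genes, 1 value per group, in KO-NTD, KO-N, the column headed Control and WT, with bars for the authors' confidence bounds (no bounds are given for WT). *Hbb-y* stands at 843 FPKM in KO-NTD embryos, against 1655 FPKM in KO-N embryos and 1956 FPKM in WT embryos.

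Of the summed FPKM of red cell genes found by listed symbol, the globins made up 94.99% in KO-NTD embryos, against 96.3% in KO-N embryos. Their sum was 3014 FPKM in KO-NTD embryos and 4620.0 FPKM in KO-N embryos, against 5854 FPKM in WT embryos, so that KO-NTD embryos had 51.5% and KO-N embryos 78.9% of the WT sum. *Hbb-y* made up 47.3% of the beta-like sum in KO-NTD embryos and 57.9% in KO-N embryos, against 53.9% in WT embryos and 54.2% in the column headed Control. The *Hbb-y* to *Hbb-bh1* ratio was thus 0.897 in KO-NTD embryos and 1.38 in KO-N embryos, against 1.17 in WT embryos. Between KO-NTD and KO-N embryos, the log2 fold of *Hbb-y* was lower than that of *Hbb-bh1* by 0.62 (difference -0.62, 95% interval -1.09 to -0.15). For KO-NTD over the Control column the difference was -0.40 (95% interval -0.87 to 0.07), and for KO-N over that column it was 0.22 (-0.26 to 0.70), both including 0. This ratio was looked at after the values were seen, and its intervals take the bounds of the genes as independent. Those with the Control column also take it as independent of the KO groups, which is not known. No 50-base stretch of the *Hbb-y* or *Hbb-bh1* transcripts in GENCODE M21 occurs in a transcript of another gene, although reads with mismatches could still be shared between them. The adult-type alpha-globin genes *Hba-a1* and *Hba-a2* have one shared span in the table and estimates outside their own bounds, so no comparison with zeta-globin was made.

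Of the 7 genes of erythroid transcription factors 1, *Klf1*, was lower, against 3.77% of all genes tested. The median log2 fold of the 7 was -0.25. *Klf1*, the factor of beta-like globin and membrane genes, was at 2.65 FPKM (1.97 to 3.33) in KO-NTD embryos and 3.78 FPKM (2.87 to 4.69) in KO-N embryos, against 5.08 FPKM in WT embryos. Its log2 fold over KO-N was -0.50 (95% interval -0.98 to -0.01), and the bounds overlapped. *Gata1*, which is X-linked, was at 2.29 FPKM in KO-NTD embryos and 2.84 FPKM in KO-N embryos, against 3.02 FPKM in the column headed Control (log2 fold over KO-N -0.30, 95% interval -0.82 to 0.22). *Nfe2*, a globin gene activator, was at 2.64 FPKM in KO-NTD embryos and 3.45 FPKM in KO-N embryos (-0.37, -0.92 to 0.17). The repressor gene *Gfi1b* was at 0.986 FPKM in KO-NTD embryos and 1.19 FPKM in KO-N embryos (-0.25, -0.89 to 0.39). None of the intervals of these last 3 genes excludes 0.

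The regulators that other embryonic cells also use were at nearly equal or higher values in KO-NTD relative to KO-N embryos. *Tal1*, needed for blood and expressed in endothelium, was at 6.35 FPKM (5.24 to 7.47) in KO-NTD embryos and 5.27 FPKM (4.29 to 6.25) in KO-N embryos, a log2 fold of 0.27 (95% interval -0.09 to 0.62). *Tal1* was at 6.71 FPKM (5.50 to 7.92) in the column headed Control, above both KO groups, with bounds overlapping theirs. Its partner gene *Lmo2* was at 12.8 FPKM in KO-NTD embryos and 12.0 FPKM in KO-N embryos (0.09, -0.27 to 0.46). The GATA1 cofactor gene *Zfpm1* was at 15.8 FPKM in KO-NTD embryos and 15.7 FPKM in KO-N embryos (0.00, -0.28 to 0.28). *Epor*, the erythropoietin receptor gene, was at 2.61 FPKM in KO-NTD embryos and 2.77 FPKM in KO-N embryos (-0.08, -0.58 to 0.41). For all 4 genes the interval includes 0, and those of *Zfpm1* and *Lmo2* reach no lower than -0.28.

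Among the genes of membrane proteins, 4 of the 6 that passed the filter were lower in KO-NTD embryos, against 3.77% of all genes tested. The median log2 fold of the 6 was -0.57. *Slc4a1*, the anion exchanger band 3, was at 11.8 FPKM (9.88 to 13.8) in KO-NTD embryos and 17.7 FPKM (14.8 to 20.6) in KO-N embryos, against 23.7 FPKM in WT embryos. Its log2 fold was -0.58 over KO-N (95% interval -0.90 to -0.25), with bounds apart, and -0.99 over WT. *Rhag*, the Rh-associated glycoprotein and ammonia channel, was at 1.18 FPKM (0.745 to 1.62) in KO-NTD embryos and 2.36 FPKM (1.64 to 3.08) in KO-N embryos, against 3.54 FPKM in WT embryos. Its log2 fold over KO-N was -0.94 (95% interval -1.58 to -0.31), with bounds that only just clear each other. *Rhd*, the Rh protein that sits in the membrane with RHAG, was at 0.504 FPKM in KO-NTD embryos and 0.807 FPKM in KO-N embryos, against 1.25 FPKM in WT embryos. Its log2 fold over KO-N was -0.59 with a wide interval from -1.40 to 0.23.

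The blood group genes *Kel*, for a membrane endopeptidase, and *Ermap*, for an immunoglobulin-like protein, were also at lower values. *Kel* was at 1.16 FPKM in KO-NTD embryos and 1.76 FPKM in KO-N embryos, against 1.84 FPKM in WT embryos, a log2 fold over KO-N of -0.56 (95% interval -1.12 to 0.00, its upper limit just below 0). *Ermap* was at 2.37 FPKM in KO-NTD embryos and 2.86 FPKM in KO-N embryos, against 3.11 FPKM in WT embryos (-0.26, -0.69 to 0.17). Both overlapped in their bounds. *Icam4*, an adhesion protein gene of erythroblasts, and *Cldn13*, a claudin gene, did not pass the filter on low values. *Icam4* was at 0.240 FPKM in KO-NTD embryos and 0.680 FPKM in KO-N embryos, against 0.698 FPKM in WT embryos (log2 fold over KO-N -1.20, 95% interval -2.28 to -0.12). *Cldn13* was at 0.285 FPKM in KO-NTD embryos and 0.556 FPKM in KO-N embryos (-0.77, -1.93 to 0.39). *Aqp1*, a water channel of red cells and endothelium, was at 0.768 FPKM in KO-NTD embryos and 0.634 FPKM in KO-N embryos (0.24, -0.39 to 0.88). Of the membrane protein genes measured, *Aqp1* alone had a fold above 0.

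In the membrane skeleton, *Ank1*, the ankyrin that ties band 3 to spectrin, was at 1.83 FPKM (1.48 to 2.18) in KO-NTD embryos and 2.53 FPKM (2.07 to 2.99) in KO-N embryos, against 2.71 FPKM in WT embryos. Its log2 fold over KO-N was -0.45 (95% interval -0.80 to -0.09). *Add2*, the beta-adducin gene, was at 1.67 FPKM in KO-NTD embryos and 2.29 FPKM in KO-N embryos, against 2.92 FPKM in WT embryos (-0.43, -0.88 to 0.03). Of *Epb42*, read from its older symbol, the values were 1.53 FPKM in KO-NTD embryos and 1.92 FPKM in KO-N embryos (-0.31, -0.81 to 0.19). *Sptb*, for beta-spectrin, was at 4.84 FPKM in KO-NTD embryos and 4.79 FPKM in KO-N embryos (0.01, -0.30 to 0.32). The *Ank1* span overlaps 3 smaller genes of the table, the microRNA genes *Mir486* and *Mir3107* and a predicted gene.

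**Figure D2:**
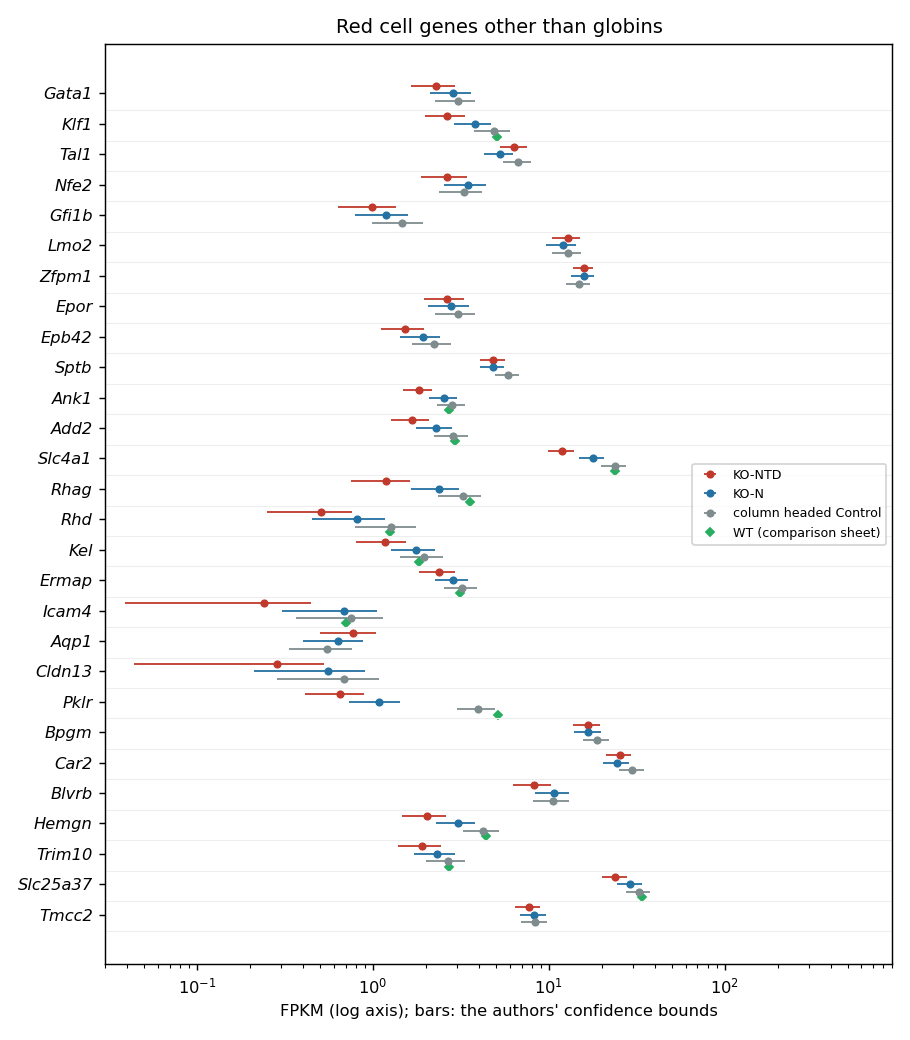
FPKM of the red cell genes other than globins on a log axis, 1 value per group, with bars for the authors' confidence bounds and diamonds for the WT values that the comparison sheets give. For *Pklr* KO-NTD (0.650 FPKM) and KO-N (1.07 FPKM) embryos lie far below WT (5.15 FPKM), while for *Zfpm1*, *Bpgm* and *Car2* the KO-NTD and KO-N points nearly coincide.

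*Pklr*, the pyruvate kinase of red cells and liver, was the gene with the largest difference from WT. It was at 0.650 FPKM (0.410 to 0.890) in KO-NTD embryos and 1.07 FPKM (0.728 to 1.42) in KO-N embryos, against 5.15 FPKM in WT embryos and 3.95 FPKM (2.99 to 4.91) in the column headed Control. The log2 fold over WT was -2.81 for KO-NTD and -2.16 for KO-N embryos, and both KO groups were far below WT. Between KO-NTD and KO-N embryos it was -0.65 (95% interval -1.26 to -0.03), with bounds that overlap. The other red cell enzyme genes differed less between the KO groups. *Bpgm*, which makes the oxygen affinity regulator 2,3-bisphosphoglycerate, was at 16.7 FPKM in KO-NTD embryos and 16.7 FPKM in KO-N embryos (-0.01, -0.35 to 0.34). *Car2*, a carbonic anhydrase gene, was at 25.3 FPKM in KO-NTD embryos and 24.4 FPKM in KO-N embryos (0.05, -0.27 to 0.38) and *Blvrb*, for biliverdin reductase B, at 8.28 FPKM in KO-NTD embryos and 10.7 FPKM in KO-N embryos (-0.37, -0.83 to 0.10). All 3 intervals include 0.

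Of the other red cell genes, *Hemgn*, for a nuclear protein of blood cells, was at 2.03 FPKM (1.46 to 2.60) in KO-NTD embryos and 3.03 FPKM (2.28 to 3.78) in KO-N embryos, against 4.36 FPKM in WT embryos. Its log2 fold was -0.56 over KO-N (95% interval -1.06 to -0.05) and -1.07 over WT. *Slc25a37*, the mitochondrial iron importer mitoferrin-1, was at 23.8 FPKM in KO-NTD embryos and 29.1 FPKM in KO-N embryos, against 33.7 FPKM in WT embryos (log2 fold over KO-N -0.29, 95% interval -0.61 to 0.04). Of the 50-base windows of its transcripts in GENCODE M21, 6.99% also occur in a transcript of the predicted gene *Gm16867*. The same holds for 2 windows of *Rhag* and 13 of *Ermap*, with other genes. *Trim10*, needed for terminal red cell differentiation, was at 1.91 FPKM in KO-NTD embryos and 2.31 FPKM in KO-N embryos, against 2.70 FPKM in WT embryos (-0.26, -0.78 to 0.25). *Tmcc2* was at 7.66 FPKM in KO-NTD embryos and 8.26 FPKM in KO-N embryos (-0.11, -0.43 to 0.22). *Tspo2*, an erythroid relative of the translocator protein gene, is listed at 0 in all 3 columns. Separately, 141 genes of the table are at 0 in 1 column and at 5 FPKM or more in another. Whether the 0 values of *Tspo2* are failed estimates cannot be told from these genes.

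**Figure D3:**
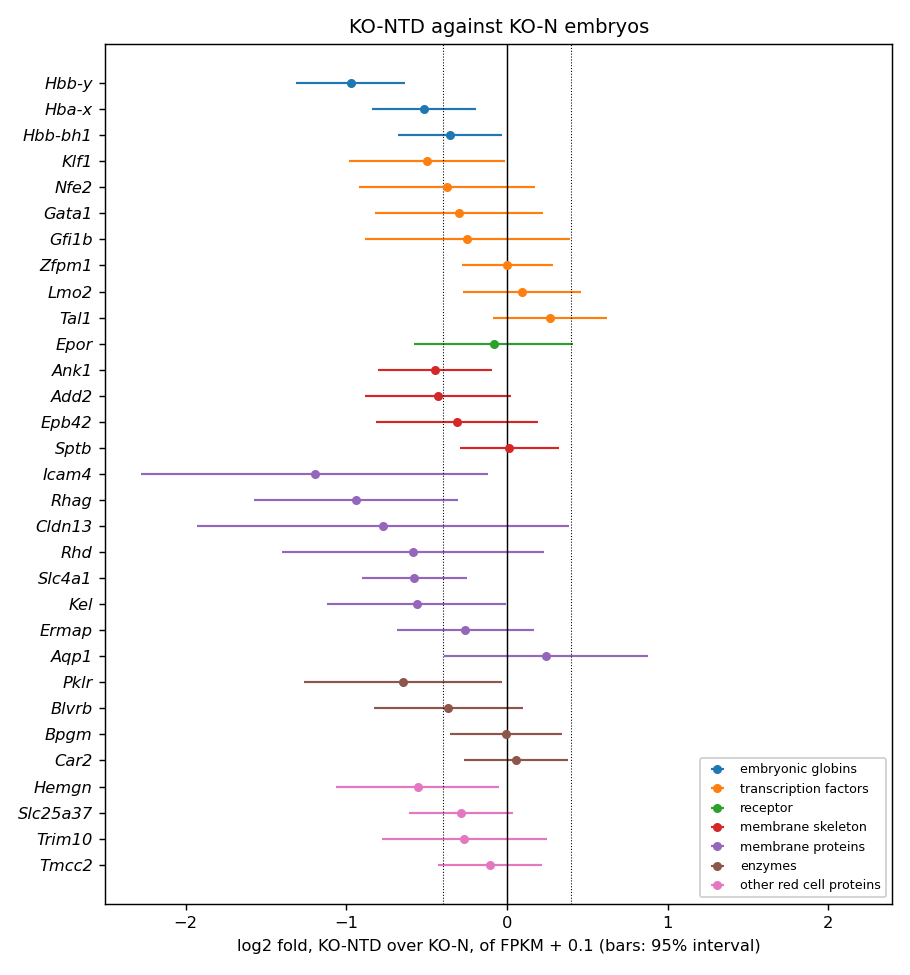
Fold (log2) in KO-NTD over KO-N embryos (FPKM + 0.1) for each red cell gene with values above 0 FPKM, grouped by role, with 95% intervals from the authors' confidence bounds and dotted lines at folds of 0.4 in size. The intervals of *Hbb-y* (-1.31 to -0.64) and *Slc4a1* (-0.90 to -0.25) lie clear of 0, while those of *Tal1*, *Lmo2*, *Zfpm1*, *Car2* and *Bpgm* include it.

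The red cell genes were then divided, from background knowledge of where they are used, into those known mainly from red cells and those that endothelium, nervous system or other embryonic tissues use as well. This division was made with earlier results of these data known. Some placings are open to judgement, such as *Pklr*, also a liver enzyme, in the first set and *Slc25a37* in the second. Of 15 genes known mainly from red cells that passed the filter, 9 were lower in KO-NTD relative to KO-N embryos, and the folds ran from -0.97 to -0.25 with a median of -0.52. Of the 13 genes used elsewhere too, 2 (*Ank1* and *Add2*) were lower, and the folds ran from -0.45 to 0.27 with a median of -0.01. All 15 folds of the first set were below 0, against 7 of 13 in the second. Over all genes tested, 7906 of 13569 folds were below 0 and 3.77% of genes were lower. The difference between the sets was not tested. By promoter window, *Epb42* included, the 8 genes over the filter with a GATA word had a median log2 fold of -0.56, and the 14 without one a median of -0.26. For CACCC the medians were -0.30 in 9 genes with it and -0.31 in 13 without. Of the genes with a GATA word, all but *Epor* belong to the set known mainly from red cells. The GATA split thus overlaps the division above, and it was not tested. *Hbb-bh1*, *Nfe2*, *Lmo2*, *Ank1*, *Slc4a1*, *Car2* and *Slc25a37* had no promoter window and are in neither group.

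WT values were deposited for 16 of the red cell genes, and every one was lower in KO-NTD relative to WT embryos, going by the same sheet, where 53.4% of the 786 matched genes were lower. Selection by the authors' own calls set which genes these are. The 4 that are in the sheet of KO-N and WT embryos, *Hbb-bh1*, *Hemgn*, *Pklr* and *Slc4a1*, were lower in KO-N relative to WT embryos, as were 66.1% of its 127 matched genes. After *Pklr*, the lowest log2 folds over WT in KO-NTD embryos were those of *Rhag* (-1.50), *Icam4* (-1.23), *Hbb-y* (-1.21) and *Rhd* (-1.16). In KO-N embryos the log2 folds over WT were -0.56 for *Rhag*, -0.03 for *Icam4*, -0.24 for *Hbb-y* and -0.57 for *Rhd*. *Kel* was at -0.62 (KO-NTD) and -0.05 (KO-N) against WT, and *Ank1* at -0.54 (KO-NTD) and -0.09 (KO-N). These comparisons share the WT libraries, and the WT values carry no bounds.

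**Figure D4:**
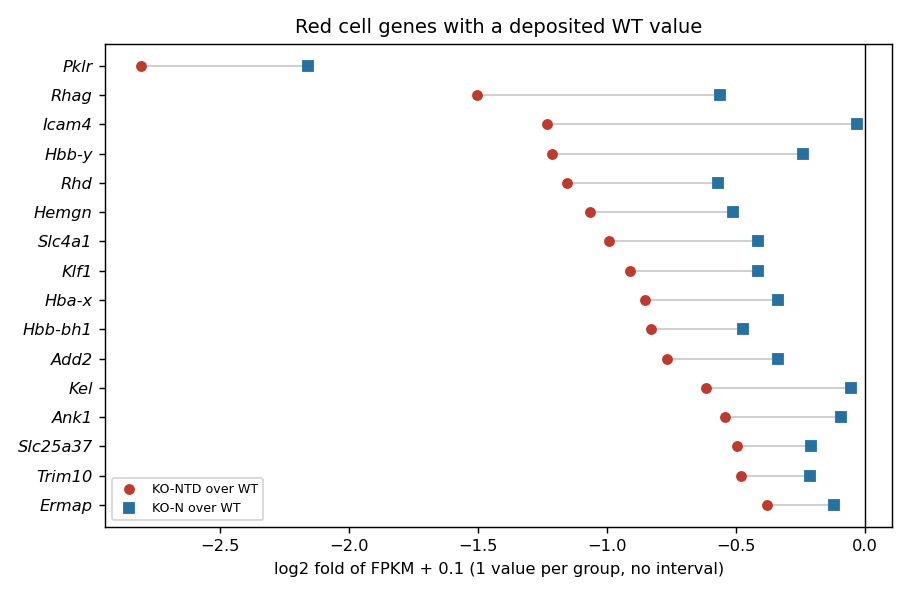
Log2 fold over WT (FPKM + 0.1) of the 16 red cell genes with a deposited WT value, with circles for KO-NTD and squares for KO-N embryos, 1 value per group and no interval. *Pklr* lies at -2.81 for KO-NTD and -2.16 for KO-N embryos, and *Icam4*, *Kel* and *Ank1* lie near 0 in KO-N embryos (-0.03, -0.05 and -0.09).

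The column headed Control allows all 28 genes to be set beside another value with bounds. The comparisons with it share that column, and their counts are not independent. In KO-NTD embryos 16 of the 28 were lower than in that column (3.15% of all genes tested) and 1, *Aqp1* (log2 fold 0.43, 95% interval -0.21 to 1.07), was higher (2.93% of all genes tested). The bounds did not overlap for 11 lower genes, against 0.87% of all genes tested. In KO-N embryos 5 of the 28 were lower, *Hemgn*, *Pklr*, *Rhag*, *Rhd* and *Slc4a1*, against 1.5% of all genes tested. Among the 12 genes averaging 5 FPKM or more, 5 were lower in KO-NTD embryos (1.41% of all such genes) and 1 in KO-N embryos (0.865%). With 1 FPKM added in place of 0.1, 2 of the 28 were lower in KO-N embryos, against 0.929% of all genes. Only for *Pklr* (-1.79, 95% interval -2.32 to -1.25) did the bounds of KO-N and that column not overlap, against 0.464% of all genes tested. *Klf1* was at -0.86 (95% interval -1.34 to -0.38) in KO-NTD and -0.36 (-0.83 to 0.10) in KO-N embryos against that column. *Slc4a1* was at -0.99 (-1.32 to -0.67) in KO-NTD and -0.42 (-0.74 to -0.10) in KO-N embryos against it. Since the libraries behind the column are not given and it lies between WT and KO-N for *Pklr*, these folds do not stand for folds over WT.

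Among 25 further erythroid genes, such as those of glycophorins, alpha-spectrin and the urea transporter, 18 passed the filter. Of the 18, *Mgst3* alone was lower by the fold used, at -0.40 for KO-NTD against KO-N embryos, and 0 were higher. Of all genes tested, 3.77% were lower and 3.41% higher. The log2 folds of the 18 ran from -0.40 to 0.04 with a median of -0.25. Of these, 16 were below 0, against 7906 of the 13569 over all genes tested. Of the 8 heme synthesis enzymes, 1 was lower, with a median of -0.13. That gene was *Alas2*, the red cell enzyme of the first step of heme synthesis, at a log2 fold of -0.59. Reference genes had a median of -0.02 over 10 genes.

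Markers of the other cells in a whole embryo were measured beside the red cell genes. Of all genes tested, 3.77% were lower and 3.41% higher in KO-NTD relative to KO-N embryos. Of 20 endothelial markers 0 were past the fold in either direction, with a median of 0.01 and a summed level of 268 FPKM in KO-NTD embryos and 262 FPKM in KO-N embryos. Of 6 markers of blood progenitors 1, *Myb*, was lower (-0.51), and the median was -0.05. Of 11 macrophage markers 0 passed the filter, with a sum of 1.56 FPKM in KO-NTD embryos and 1.24 FPKM in KO-N embryos, and of 8 megakaryocyte markers *Pf4* (-0.87) and *Itga2b* (0.15) passed. The 14 visceral endoderm markers, which the yolk sac epithelium expresses, were all higher in KO-NTD embryos, with a sum of 177 FPKM, against 32.1 FPKM in KO-N embryos and 80.0 FPKM in the column headed Control. Of 15 neuronal markers, 10 were lower, with a sum of 54.3 FPKM in KO-NTD embryos, against 79.1 FPKM in KO-N embryos. The part of these cells in the red cell gene values was not tested.

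**Figure D5:**
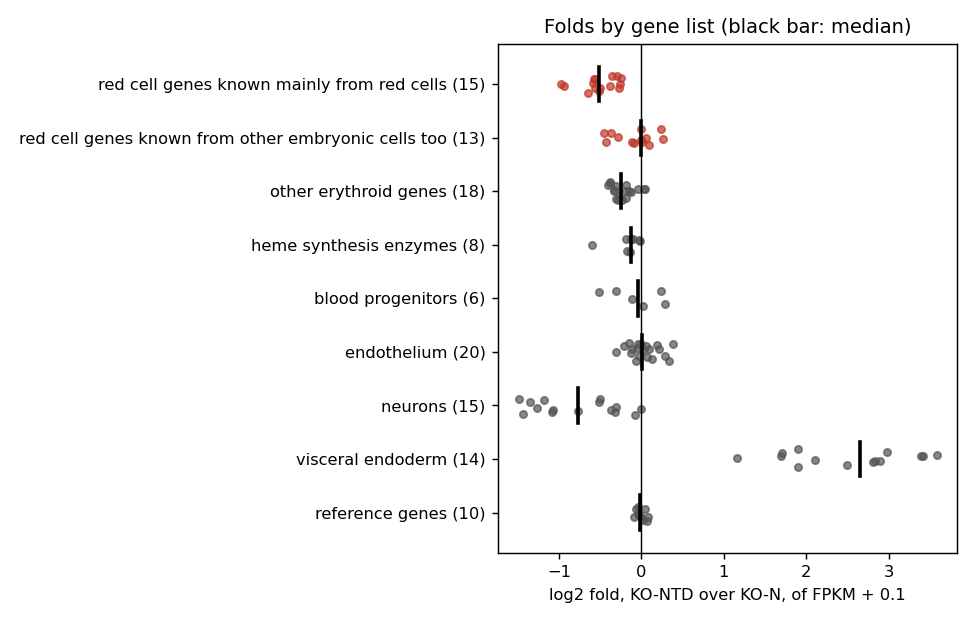
Fold (log2) in KO-NTD over KO-N embryos (FPKM + 0.1) for each gene that passed the filter, by list, with the number of genes in brackets and a black bar at the median. Red cell genes known mainly from red cells lie at a median of -0.52, those also known from other cells at -0.01, endothelial markers at 0.01 and visceral endoderm markers at 2.65.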

How the data were processed

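Poly-A RNA of 9 pools was sequenced with a strand-specific kit. Reads were single-end. The authors used TopHat2 0.7 for mapping (mm10) and Cufflinks 2.2.1 for FPKM, and the deposited FPKM values, with their bounds, are 1 per group. Which annotation was used is not given, and the deposited values give no read depth. The authors' comparison sheets also hold their fold changes, test values, p-values and q-values, which were not used.

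Because values per pool were not analysed here, no replicate test was run. Log2 folds of FPKM + 0.1 were computed in Python 3.11.15 with pandas 2.3.3. Standard errors came from the distance between a value and its upper bound, read as 2 standard deviations, and 95% intervals are 1.96 standard errors to each side, computed by the delta method. Lower and upper distances were equal (within 1% of the value) for 99.9% of KO-NTD values with a lower bound above 0. The bounds lay a median of 23.5% (KO-NTD) and 22.0% (KO-N) away from the value for the 28 genes. The interval of a fold combines the bounds of both groups, so for genes with such bounds differences of this size or less are not resolved. Of 24357 genes, 27 with names turned into dates were left out. Folds over WT set the WT value of a sheet against the KO value of the table of all genes, where the sheet's KO-NTD values are 1.0011 to 1.0025 times those of the table.

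All 33 genes are named by rule, and others only where a result turns on them. The genes and lists were chosen with earlier results of these data known. The functions were tested on simulated data. Sequences are from RefSeq, GRCm38.p6, with the start site nearest the deposited gene span. For all genes, the first listed window of each symbol was used. Alternatives covered the pseudocount, the filter, the fold, the scaling and the genes included.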

Additional observations from a re-analysis of the deposited data

How the results depend on the processing

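No paired analysis was possible because the tables used here hold 1 combined value per group, and for the same reason no pool was left out in turn. The 11 genes lower in KO-NTD relative to KO-N embryos were 5 with a pseudocount of 1 (1.98% of all genes), 3 among the 12 genes of at least 5 FPKM (1.64%) and 0 at a log2 fold of 1 (0.715%). The first setting shrinks the folds of low genes, the second tests fewer genes and the last asks for a larger fold. Against the column headed Control, the 16 lower genes in KO-NTD embryos were 5 among those 12 genes (1.41% of all genes) and 5 at a log2 fold of 1 (0.567%). The 5 lower in KO-N embryos were 2 with a pseudocount of 1 (0.929%), 1 among those 12 genes (0.865%) and 1 at a log2 fold of 1 (0.545%). The median log2 fold between the KO groups was -0.20 over those 12 genes (-0.02 over all such genes) and -0.29 without the globins, against -0.33. A pseudocount of 0.01, no filter, centring on the median of all genes and equal totals without globins left each count within 1.5 times. Adding *Epb42* gave 11 lower genes, and leaving out 4 genes that share transcript windows or span with another gene gave 9, both chosen after the data were seen. Over 162 folds of single genes, 160 moved by less than 1 standard error, 2 moved more (*Icam4* to -0.44 and *Pklr* to -0.33, with a pseudocount of 1) and 0 changed sign while past the fold. Many of the 162 could not move, since the filter settings leave the fold of a single gene as it is. Centring and equal totals shift all genes by nearly the same small amount, so only the pseudocount settings probe single genes. Precision is lowest for the low genes *Icam4*, *Cldn13* and *Rhd*, which have the widest bounds for their level.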
